A study of Mus musculus with 238 samples.

Results

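The samples described here are the pons samples of the diet experiment, taken as every sample labelled pons and either diet restricted (labelled aDR) or fed ad libitum (labelled AL). They are 9 of the 238 samples of the series. Each came from another female C57BL/6JN mouse aged 19 months, and mRNA was sequenced from homogenised tissue by Smart-Seq2 without strand information. The restricted group held animals 61, 62, 64, 65 and 67 (n = 5), and the freely fed group held animals 63, 66, 68 and 69 (n = 4). The labels name no transgene or drug for either group, and the length of the restriction, the feeding times and the hour of dissection are not given in the sources used here. The comparison asks which transcripts of the pons differ between restricted and freely fed old mice, and what the sample of animal 67, in which a few genes took an unusual share of the counts, does to that comparison.

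The pons is the stretch of brainstem between the midbrain and the medulla. It carries long myelinated tracts, relays cortical signals to the cerebellum, and holds serotonin neurons of the raphe and noradrenaline neurons of the locus coeruleus. The pituitary gland hangs below the hypothalamus on the same underside of the brain, and its anterior and intermediate lobes make prolactin, growth hormone, thyrotropin, the gonadotropins and pro-opiomelanocortin. Food restriction in rodents is known to raise circulating glucocorticoid, to lower body temperature and to move the timing of the circadian clock, so genes that answer to each of these were listed and followed.

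Depth ran from 4081568 to 14269037 counts a sample, and animal 67 was the shallowest. Serotonin neuron markers were present in every sample, with Tph2, the enzyme of serotonin synthesis in neurons, at 57.1 to 432 CPM (counts scaled to the same total in every sample). Markers of noradrenaline neurons were not: Dbh, which makes noradrenaline from dopamine, reached at most 0.245 CPM, under the level of 3 counts in that sample (0.735 CPM), and Slc6a2, the noradrenaline transporter, reached 0.140 CPM. The counting floors of 3 counts, 0.210 to 0.735 CPM over the 9 samples, cover counting error only, since PCR copies were not marked with molecular identifiers. The choroid plexus gene Ttr and the cerebellar granule cell gene Gabra6 stood at or below 2.72 and 0.636 CPM. All 36 pairs of samples differed by more than counting noise (chi-square per degree of freedom 2.07 to 312), so each was kept as 1 replicate. In all, 3 of the 9 samples departed from the rest in which brain or pituitary genes they held, and they are described before the diet comparison.

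The sample of animal 67 held the transcripts of the anterior pituitary at a level found in no other pons sample. Prolactin (Prl) stood at 140935 CPM in animal 67 and at 183, 49.3, 1349 and 0.314 CPM in restricted animals 61, 62, 64 and 65. In the freely fed animals 63, 66, 68 and 69 it stood at 35.0, 2.59, 276 and 10.3 CPM. Growth hormone (Gh) stood at 30256 CPM in animal 67, against 123, 98.8, 386 and 0.209 CPM in the other restricted animals and 5.40, 0.701, 63.4 and 2.57 CPM in the freely fed ones. The lowest and the highest of the other 8 samples thus lay over 3 orders of magnitude apart for Prl, and animal 67 lay a further 104-fold above the highest, animal 64. The 7 hormone genes Prl, Gh, Cga, Pomc, Tshb, Lhb and Fshb together took 18.7% of the counts of animal 67 and 0.000387% to 0.187% elsewhere.

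The promoter of Prl is shown because this 1 gene carried most of the excess, and because it holds the kind of short AT-rich site that the pituitary factor Pou1f1 is known to bind. It covers 250 bases before to 50 bases after the start of the gene in RefSeq (GRCm38.p6, chr13:27057320-27057619, plus strand, written with the gene), and the gene itself runs from 27057570 to 27065204. The capitals mark matches to TATNCAT on either strand, 148 and 47 bases before the start. Of 32851 mouse promoters of the same 300 bases, 8.84% hold at least 1 such match.
Prl: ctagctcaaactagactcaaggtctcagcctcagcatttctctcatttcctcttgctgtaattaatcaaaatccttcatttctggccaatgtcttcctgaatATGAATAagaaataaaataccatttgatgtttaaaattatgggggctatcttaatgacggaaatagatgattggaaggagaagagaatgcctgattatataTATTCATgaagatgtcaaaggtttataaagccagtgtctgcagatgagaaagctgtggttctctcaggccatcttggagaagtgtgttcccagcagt
Of the 16 genes listed for anterior and intermediate pituitary, 11 had a promoter in that table and 2 of these, Prl and Pou1f1, held the letters. Among all 27025 genes with a promoter the share was 10.2%. Such a match is a description of the letters.

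All 7 hormone genes were highest in animal 67, by unequal factors. Cga, the subunit shared by thyrotropin and the gonadotropins, stood at 15275 CPM there and at 0 to 126 CPM in the other 8 samples. Tshb, the thyrotropin subunit, stood at 263 CPM against 0.631 to 2.11, Lhb at 35.8 against 0 to 1.71, and Fshb at 24.7 against 0 to 0.759. Pomc, the precursor of corticotropin and melanotropin, stood at 91.4 CPM in animal 67 and at 45.6 CPM in animal 62, a ratio of 2.0 between these samples that was the smallest of the 7 hormone genes. Of the transcription factors that build the gland, Pou1f1 (needed for prolactin, growth hormone and thyrotropin cells) stood at 252 CPM against at most 0.996. Pitx1 stood at 117 CPM against at most 0.854, and Six6 at 119 against at most 0.569.

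The other genes far above the rest in animal 67 included secretory and epithelial ones. Chgb, a granin of dense-core secretory granules, stood at 17165 CPM, against 385 to 645 CPM elsewhere. Platr9, a long noncoding RNA, stood at 6446 CPM against 0 to 52.1. The serine protease genes Prss28 and Prss29 stood at 2721 and 490 CPM against at most 5.43 and 0.604, the 2 largest ratios to the next sample among genes of at least 50 CPM. Epcam, an epithelial adhesion molecule, stood at 413 CPM against 0 to 2.70. Galanin (Gal), a neuropeptide that prolactin cells also make, stood at 436 CPM against 0.303 to 6.26. Of the 4214 genes of at least 50 CPM in animal 67, 61 exceeded the highest of the other samples at least 10 times. Those 61 took 22.2% of its counts and 0.0780% to 0.268% of the counts elsewhere.

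**Figure D1:**
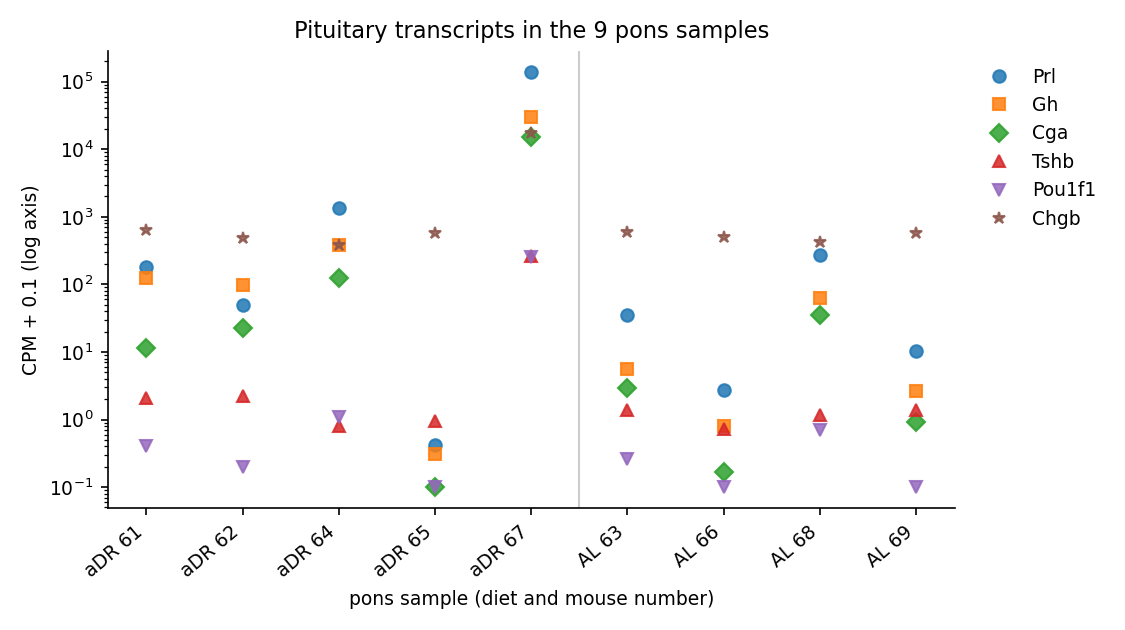
Pituitary transcripts in the 9 pons samples. Each point is 1 sample and 1 gene, in CPM + 0.1 on a log axis, by diet and animal. Animal 67 stands at 140935 CPM for Prl, above the 8 others (0.314 to 1349 CPM).

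Smaller amounts of the same hormone transcripts were present in several other samples. The ratio of Gh to Prl was 0.215 in animal 67 and lay between 0.155 and 2.01 in the other pons samples with at least 30 Prl counts. Animal 62 had the highest ratio, at 2.01, with the second highest Pomc, and animal 63 had the lowest. Among the 14 other brain regions of animal 67, Prl reached 10 CPM in 6. It stood at 1209 CPM in the medulla, with Pomc at 805 CPM, and at 938 CPM in the hypothalamus, 295 in the entorhinal cortex, 44.7 in the posterior hippocampus, 36.2 in the visual cortex and 10.9 in the cerebellum. It was at 0 counts in its motor cortex, caudate putamen, subventricular zone and thalamus. Over all 122 brain samples of the diet experiment outside the pons, 24 had at least 10 CPM of Prl and 65 had none, where the floor of 3 counts lay at 0.152 to 1.65 CPM. The highest of the 122 was the entorhinal cortex of animal 62 at 1944 CPM, and it held more Gh than Prl (4544 CPM of Gh).

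Many brain transcripts were lower in animal 67, by unequal factors. Among 11740 genes with a median of at least 5 CPM in the other samples, 19.5% stood at or below 0.5 times that median in animal 67, against 0.103% to 2.49% for each other sample set against the rest. Myelin basic protein (Mbp), the most abundant transcript of the other 8 samples at 12418 to 20762 CPM, stood at 3271 CPM. Gad1, the GABA-synthesising enzyme, stood at 21.3 CPM against 115 to 560, the smallest ratio to the lowest other sample, 0.185, among genes of at least 50 CPM there. Both lay below all 8 other samples. A share of counts taken by a few abundant transcripts lowers every other gene by 1 common factor, so the counts were also rescaled after leaving out 70 genes (the genes above and the pituitary list), which held 22.5% of animal 67's counts.

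After that rescaling the gene groups still differed in how far they lay from the median of the other 8 samples. All 14 myelin genes stood below that median, with a median ratio of 0.340 (range 0.197 to 0.494), as did all 12 astrocyte genes at 0.453 and all 8 tested genes of oligodendrocyte precursors at 0.418. The glycinergic neuron genes had a median ratio of 0.229 (6 of 6 below 1), and the serotonergic ones 0.282 (6 of 7 below 1). Microglia and endothelium were less far below, at 0.771 (10 of 15 below 1) and 0.856 (8 of 13). Over all 11724 genes the median ratio was 1.11. The rescaling left out 70 genes only, so any other RNA that came with the pituitary transcripts stayed in the totals. Its share in these ratios was not tested. In bulk tissue, fewer cells of a type, less RNA per cell and dilution by RNA of another tissue cannot be told apart.

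Stress and antigen presentation genes lay in the other direction. The heat shock and unfolded protein list had a median ratio of 1.96 after rescaling (6 of 21 below 1), and 3 of its endoplasmic reticulum members are given as examples. Hspa5, the main chaperone of the endoplasmic reticulum, stood at 1181 CPM in animal 67 against 300 to 455 before rescaling, Manf at 299 against 31.6 to 57.5, and Sdf2l1 at 136 against 15.6 to 23.9. The list as a whole summed to 8550 CPM before rescaling, inside the 7614 to 8616 CPM of the other samples. The complement and MHC class I list had a median ratio of 1.88 (2 of 13 below 1), with H2-K1, a class I heavy chain, at 291 CPM against 51.7 to 93.6. The clock list stood at 1.5 (1 of 19 below 1). These groups move with the pituitary transcripts in the same sample, and the part of each source in them was not tested.

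**Figure D2:**
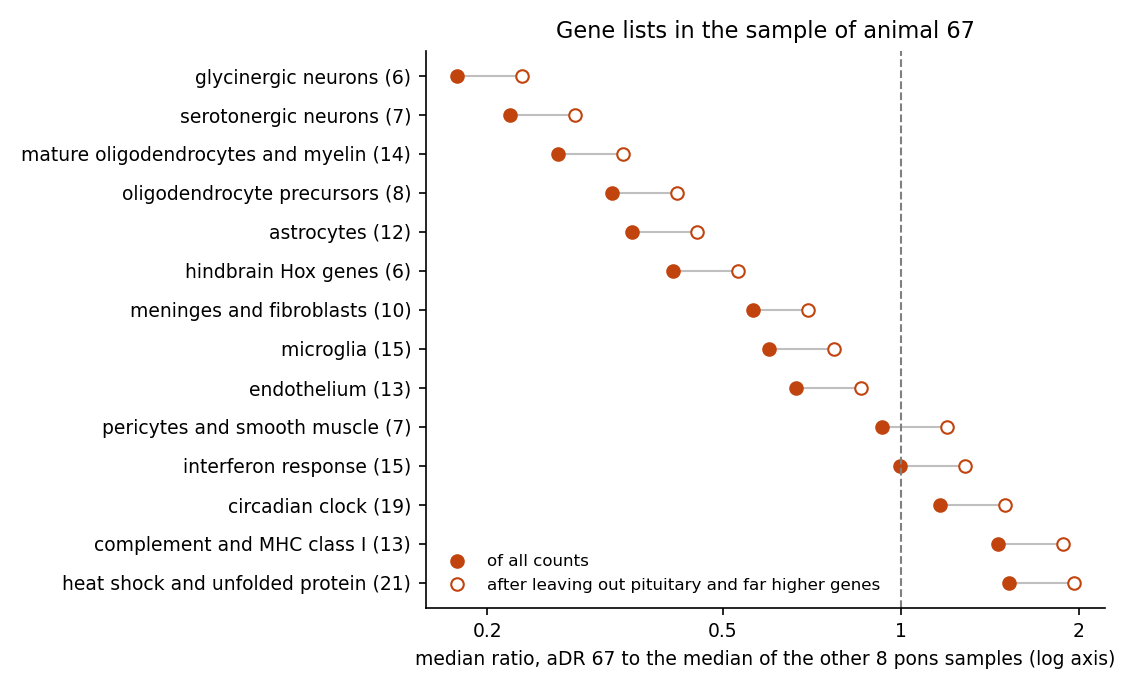
Gene groups in animal 67 against the other 8 pons samples. Points give the list median of each gene's CPM in animal 67 divided by its median over the others (log axis, number of genes in brackets), of all counts (filled) and after 70 pituitary and far higher genes were left out and the counts rescaled (open). The open points run from 0.229 for glycinergic neurons to 1.96 for heat shock and unfolded protein genes.

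Animals 64 and 68, one of each diet, departed from the rest in regional identity. The dopamine transporter (Slc6a3), found in the dopamine neurons of the midbrain, stood at 1039 CPM in restricted animal 64 and at 1288 CPM in freely fed animal 68. It stood at 322 CPM in animal 69, 121 in animal 61 and 59.1 in animal 65, and at or below 2.73 CPM in animals 62, 63, 66 and 67. Tyrosine hydroxylase (Th), the enzyme that limits dopamine synthesis, was high in the same samples, at 1330, 1249, 310, 90.9 and 63.2 CPM in animals 64, 68, 69, 61 and 65. The same pair of samples also stood highest for Pitx3 (13.5 and 20.7 CPM) and En1 (19.9 and 26.7 CPM), factors of the same neurons, while Dbh was at 0 in both.

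Hindbrain genes were low in the same pair of samples. Hox genes, which mark the hindbrain and spinal cord along the body axis and are off in the midbrain, summed to 10.1 CPM in animal 64 and 0.302 CPM in animal 68, against 34.3 to 122 CPM in the other 7. Hoxb5 stood at 2.99 CPM in animal 64 and 0 in animal 68, against 14.7 to 46.7 CPM. Slc17a7, the vesicular glutamate transporter of pontine relay neurons among others, stood at 29.7 and 3.02 CPM against 87.2 to 315. Serotonin neuron genes were not low in this pair: Tph2 stood at 432 CPM in animal 68, the highest of the 9, and at 235 CPM in animal 64. Their list summed to 704 CPM in animal 68 and 422 CPM in animal 64, against 124 to 531 CPM in the other 7. Beside the other 7 samples, the Hox genes and Slc17a7 therefore went against the label pons in this pair. The label is kept with that limit. Whether the pair's tissue lay outside the pons or in another part of it was not tested. The serotonin genes do not decide it, because they are not particular to the pons. In the medulla samples of the same mice Tph2 stood at 11.5 to 182 CPM. A second component of expression, 25.2% of the variance over 9 samples, placed animals 64 and 68 at 50.8 and 48.2 and the others at -22 to -5.1. The first, 53.6%, placed animal 67 at 110 and the others at -21.2 to -6.95.

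**Figure D3:**
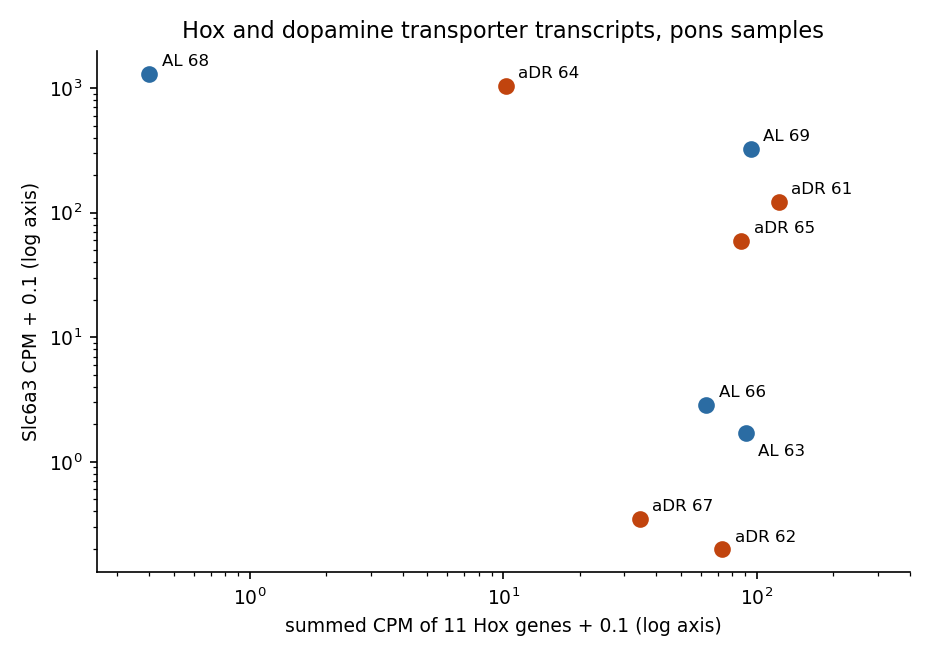
Slc6a3 against the summed level of 11 Hox genes in the 9 pons samples, both in CPM + 0.1 on log axes, each point 1 sample coloured by diet. Animals 64 and 68 stand at the upper left, with Slc6a3 at 1039 and 1288 CPM and Hox sums of 10.1 and 0.302 CPM.

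The diet comparison was therefore made with all 9 samples, with 8 (without animal 67), and with 6 (without animals 64, 67 and 68, a set chosen after the data were seen). Using edgeR's quasi-likelihood test with Benjamini-Hochberg adjustment, 0 of 13578 genes (0%) passed an adjusted p of 0.05 with 9 samples, where 222 (1.63%) had an unadjusted p under 0.05 and DESeq2 called 1 gene (0.00748%), Plin4. With 8 samples 0 of 13626 genes (0%) passed, 460 (3.38%) had an unadjusted p under 0.05, and DESeq2 called 4 genes (0.0294%), all higher under restriction: Plin4 (adjusted p 1.93e-05), Plekhf1 (0.00274), Cirbp (0.0229) and Gabrr2 (0.0288). With 6 samples edgeR called 1 of 13755 genes (0.00727%), Cirbp, and 744 (5.41%) had an unadjusted p under 0.05. The spread of log2 differences over all genes was 0.38 (SD) with 9 samples and 0.20 with 8. The p-values speak of the spread between these mice. All differences below are log2 values of aDR minus AL from edgeR, and none was called there unless said.

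Plin4, a coat protein of lipid droplets that glucocorticoids induce, had the smallest p with 9 samples and was the 1 gene DESeq2 called there. It stood at 22.3, 25.5, 17.5, 11.5 and 9.80 CPM in restricted animals 61, 62, 64, 65 and 67. In freely fed animals 63, 66, 68 and 69 it stood at 3.18, 2.73, 8.0 and 3.63 CPM. All restricted samples lay above all freely fed ones, the nearest pair being animal 67 at 9.80 and animal 68 at 8.0. The difference was 2.21 (SE 0.36) with 8 samples, from 19.2 ± 6.08 CPM (SD, n = 4) against 4.38 ± 2.44 (SD, n = 4), with an unadjusted p of 0.000140 in edgeR and an adjusted p of 0.935. With 9 samples it was 2.08, which DESeq2 called at an adjusted p of 0.00131. Leaving animal 67 in or out moved the difference by less than its SE.

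Both cold-inducible RNA-binding protein genes were higher in every restricted sample. Cirbp, which stabilises transcripts in mildly cooled cells, stood at 161, 156, 259, 173 and 150 CPM in restricted animals and at 104, 99.2, 127 and 109 CPM in freely fed ones. Rbm3, its close relative, stood at 110, 84.2, 90.8, 97.2 and 126 CPM against 67.4, 55.4, 38.8 and 65.4. The groups did not overlap for either gene with 9 or with 8 samples, as was the case for 0.788% and 1.54% of all genes tested in this direction. Cirbp was higher by 0.78 with 9 samples (SE 0.17), by 0.81 with 8 and by 0.67 with 6, where it rose at an adjusted p of 0.0311 (edgeR). The highest Cirbp value of the 9, 259 CPM, belonged to animal 64, one of the pair rich in midbrain genes. Rbm3 was higher by 0.92 with 9 samples and 0.78 with 8 (SE 0.18). In animal 67 Cirbp was the lowest and Rbm3 the highest of the 5 restricted samples.

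**Figure D4:**
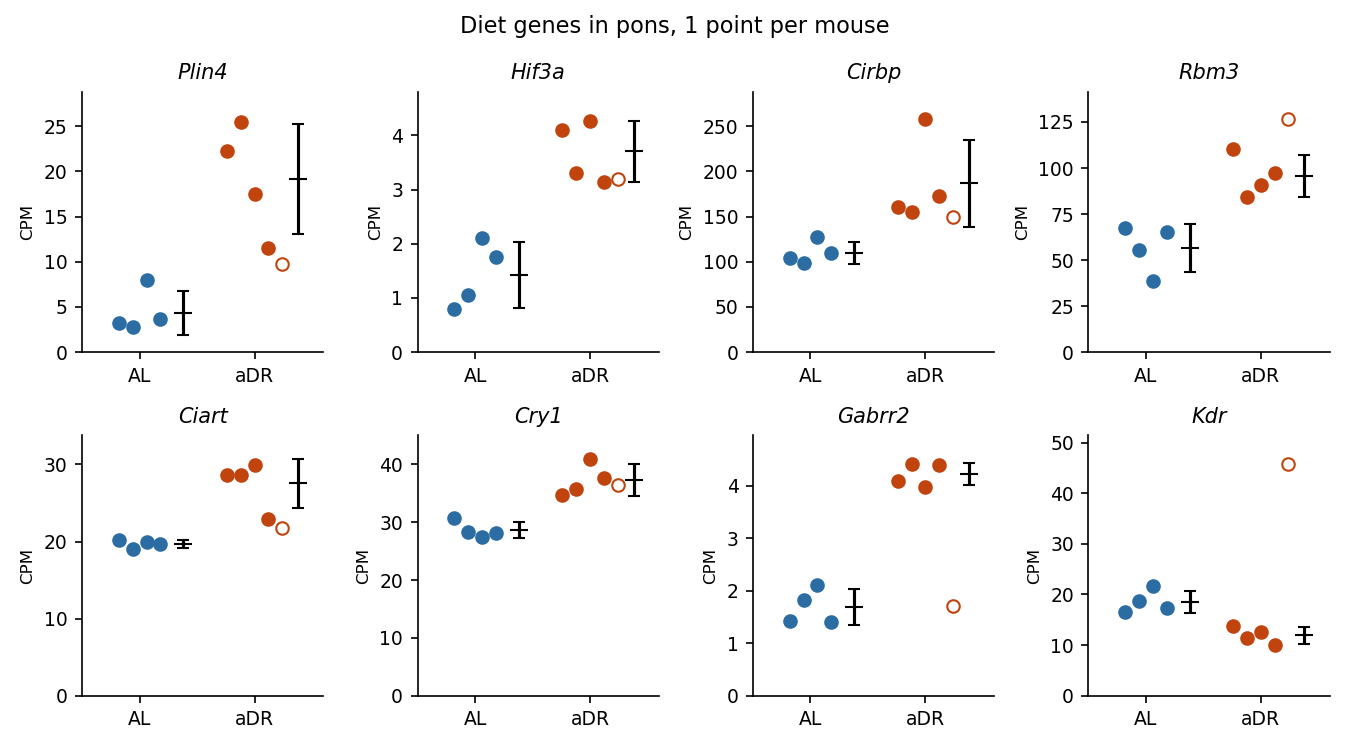
Diet genes in the pons, in CPM, for restricted (aDR) and freely fed (AL) mice. Each point is 1 mouse, the open symbol is animal 67, and bars give mean ± SD without it; Plin4 lies at 9.80 to 25.5 CPM in restricted and 2.73 to 8.0 CPM in freely fed mice.

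Genes that respond to glucocorticoid lay higher under restriction as a list, though edgeR called 0 of them. Of 20 listed genes 19 were tested, all 19 were higher in restricted mice with 8 samples, 11 had an unadjusted p under 0.05 (background 1.53% in this direction), and 6 did not overlap between diets (background 1.54%). The list's median difference was 0.37, beside 0.0086 for all genes. With 9 samples the median was 0.58 with 9 such genes (background 1.09%), and with 6 samples 0.34 with 14 (background 2.83%). The higher 9-sample median rests on animal 67: with that animal kept and any 1 other mouse left out it was 0.49 to 0.62. Yet the summed list was lowest in animal 67, at 1043 CPM against 1144 to 1720 CPM in the other samples. Some members of this list appeared in earlier results on these same samples, so the count is not independent support.

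Single members of the list followed that pattern to different degrees. Hif3a, a hypoxia-inducible factor subunit that glucocorticoids raise, stood at 4.10, 3.31, 4.27, 3.14 and 3.19 CPM in restricted animals and 0.795, 1.05, 2.11 and 1.75 CPM in freely fed ones, without overlap (1.42, SE 0.29, with 8 samples). Such a lack of overlap held for 0.788% of all genes with 9 samples and 1.54% with 8. These are low counts: the 0.795 CPM of animal 63 lies near its floor of 3 counts, 0.477 CPM. Fkbp5, a co-chaperone that dampens the glucocorticoid receptor, stood at 48.4, 47.7, 34.2, 27.1 and 80.1 CPM against 25.7, 26.6, 31.7 and 26.5. Here the groups overlapped, since animal 65 lay below animal 68, and animal 67 was the highest of all. The difference was 0.55 with 8 samples and 0.87 with 9. Sgk1, a kinase induced by glucocorticoid, stood at 373, 239, 144, 260 and 110 CPM against 154, 125, 163 and 169. Animals 64 and 67, 2 of the samples that departed from the rest, were the low ones among the restricted, and the difference was 0.77 with 8 samples and 0.98 with 6.

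Other members kept a difference in the same direction. Zbtb16, a transcription factor, was higher by 0.66 with 8 samples and Arrdc2, an arrestin-domain gene, by 0.60. Fmo2, a flavin monooxygenase, was higher by 1.22 with 8 samples and 1.09 with 9, with 4.17 CPM in animal 67 against 6.18 to 10.2 in the other restricted mice. Nfkbia, the inhibitor of NF-kappa-B, was higher by 0.37, with 51.6 to 64.2 CPM in the 4 restricted samples and 41.6 to 48.9 in the freely fed ones. Tsc22d3, which mediates anti-inflammatory effects of glucocorticoid, stood at 268, 289, 251 and 264 CPM in restricted animals 61, 62, 64 and 65, above the freely fed range of 194 to 242. It stood at 128 CPM in animal 67, below every freely fed sample, and its difference was 0.32 without that animal and 0.18 with it.

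Promoters of 3 of the genes followed here are shown because they hold the letters of a named binding site of the regulators in question, as RefSeq sequences (GRCm38.p6) of 300 bases written with the gene. Ciart lies at chr3:95882179-95882478 on the minus strand and Cry1 at chr10:85185005-85185304 on the minus strand. Capitals there mark CACGTG, the E-box that the clock activators bind. It stands 116, 58 and 44 bases before the start that the table uses for Ciart and 60 before that of Cry1. The sequence of Sgk1 lies at chr10:21993640-21993939 on the plus strand and belongs to 1 of the 6 starts the table lists. Its capitals mark the full palindrome of the glucocorticoid response element (AGAACA and TGTTCT with any 3 bases between them), 189 bases before that start, while 1 E-box in the same sequence is left in lower case.
Ciart: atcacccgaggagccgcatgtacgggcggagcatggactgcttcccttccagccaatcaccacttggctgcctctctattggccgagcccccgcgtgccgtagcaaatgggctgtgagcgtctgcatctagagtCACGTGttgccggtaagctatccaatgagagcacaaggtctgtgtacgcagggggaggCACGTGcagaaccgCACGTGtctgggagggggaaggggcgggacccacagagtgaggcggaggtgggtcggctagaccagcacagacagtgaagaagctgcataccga
Cry1: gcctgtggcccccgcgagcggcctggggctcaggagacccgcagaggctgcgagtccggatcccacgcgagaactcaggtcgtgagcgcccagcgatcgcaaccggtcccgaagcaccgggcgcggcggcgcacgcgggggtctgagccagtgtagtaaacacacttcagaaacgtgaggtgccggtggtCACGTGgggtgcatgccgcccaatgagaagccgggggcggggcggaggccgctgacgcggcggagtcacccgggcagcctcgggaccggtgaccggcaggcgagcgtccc
Sgk1: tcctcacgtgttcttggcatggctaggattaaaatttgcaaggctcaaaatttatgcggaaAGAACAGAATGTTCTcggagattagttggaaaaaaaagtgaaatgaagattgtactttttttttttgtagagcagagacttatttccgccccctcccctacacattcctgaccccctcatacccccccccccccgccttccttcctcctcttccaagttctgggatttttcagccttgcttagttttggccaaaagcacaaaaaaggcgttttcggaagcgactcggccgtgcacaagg
The E-box was present in 5 of 18 clock genes with a promoter and in 8.09% of all genes. The full palindrome was present in 1 of 18 glucocorticoid genes, Sgk1, and in 0.0111% of all genes. Counted by promoter it was present in 3 of the 32851 (0.00913%). Both strands were searched, no match overlapped one of another motif, and absence of these letters in this window says nothing about the factor.

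Clock genes were split between members that were higher under restriction and members that were not. Of 20 tested, 12 were higher with 8 samples, 4 of them with an unadjusted p under 0.05 (background 1.53% in this direction) and 0 lower with such a p. The list median of 0.054 fell on either side of 0 when 1 mouse was left out, at -0.0082 without animal 61 and 0.12 without animal 64. With 9 samples 14 were higher and 6 had such a p (background 1.09%), with a median of 0.18. Ciart, a repressor of the clock's activators, stood at 28.7, 28.7, 29.9, 22.9 and 21.8 CPM in restricted animals against 20.2, 19.1, 19.9 and 19.6 in freely fed ones. Cry1, a core repressor, stood at 34.7, 35.7, 41.0, 37.7 and 36.5 CPM against 30.7, 28.2, 27.5 and 28.2. Neither overlapped between diets, with differences of 0.52 (SE 0.10) and 0.42 (SE 0.091) with 8 samples.

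The period genes depended more on animal 67. Per1, a repressor that glucocorticoid also induces, stood at 24.6, 19.9, 14.9, 19.7 and 33.8 CPM against 14.8, 13.0, 12.8 and 16.3, and Per2 at 20.3, 18.6, 19.6, 19.5 and 46.1 CPM against 13.0, 14.2, 19.0 and 16.8. Animal 67 was the highest sample for both. The difference for Per2 was 0.35 with 8 samples and 0.74 with 9, and for Per1 it was 0.51 and 0.75. Arntl, the activator that works opposite to the repressors, was lower by 0.24 with 8 samples (unadjusted p 0.158). Nr1d1, the Rev-erb alpha repressor, differed by -0.15 with 8 samples and -0.0073 with 9, with groups that overlapped.

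Of the endothelial growth factor receptors, Kdr lay lower in restricted mice once animal 67 was left out, and Flt1 and Tek lay lower with or without that animal. Kdr, the main receptor for vascular endothelial growth factor, stood at 13.8, 11.3, 12.7 and 9.94 CPM in restricted animals 61, 62, 64 and 65, at 45.8 in animal 67, and at 16.5, 18.7, 21.6 and 17.4 CPM in freely fed animals. Without animal 67 all restricted samples lay below all freely fed ones (11.9 ± 1.67 against 18.6 ± 2.21 CPM, SD, n = 4 each), as did 1.71% of all genes tested. The difference was -0.60 (SE 0.13, unadjusted p 0.00116 in edgeR) with 8 samples, and 0.10 with 9. Flt1, a second receptor of the family, was lower with either set: it stood at 45.3 to 65.6 CPM in the 4 restricted samples, 25 in animal 67 and 65.3 to 81.5 in freely fed ones, so that the 4 restricted samples overlapped the freely fed ones by a narrow margin. Tek, the angiopoietin receptor, stood at 10.8 to 13.9 CPM, 7.35 in animal 67, and 14.8 to 16.2 in freely fed mice. Tek therefore did not overlap between diets with all 9 samples, as was the case for 0.7% of all genes tested in this direction. Endothelial markers together were also low in animal 67, at a sum of 335 CPM against 528 to 710 in the others. Its low Tek and Flt1 cannot be told apart from that lower level, and the part of diet in them was not tested.

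Of the 12 receptors and ligands of that list, 9 were lower with 8 samples, 3 with an unadjusted p under 0.05 (background 1.84% in this direction), and the median was -0.17. It moved to -0.071 without animal 68, -0.076 without animal 65 and -0.26 without animal 62. Endothelial markers as a whole were mixed: of 14, 9 were lower, 3 had such a p on the lower side and 2 on the higher side, with a median of -0.19, which moved to -0.088 without animal 65 and -0.12 without animal 68. The higher ones were Mfsd2a, the lipid transporter of the blood-brain barrier, and Slc2a1, its glucose transporter, by 0.32 and 0.20. The summed level of the 14 markers in animal 67, 335 CPM, lay below the 528 to 710 CPM of the others, whereas its Kdr lay above them. Pxdn, a peroxidase of the extracellular matrix, followed Kdr, at 4.82 to 5.42 CPM in 4 restricted samples, 16.7 in animal 67, and a difference of -0.72 with 8 samples against -0.14 with 9. Podxl, a sialomucin of the vessel surface, was lower by 0.64 with 8 and 0.59 with 9 samples.

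Further genes that differed between the diets at an unadjusted p under 0.05 in edgeR, with 9 and with 8 samples, included receptors and transporters. Gabrr2, a subunit of ionotropic GABA receptors, had the smallest p of the 8-sample fit. It stood at 4.1, 4.41, 3.98 and 4.4 CPM in restricted animals 61, 62, 64 and 65 and at 1.72 in animal 67, against 1.43, 1.82, 2.11 and 1.40 in freely fed ones. Without animal 67 the groups stood well apart, and with it they overlapped. The difference was 1.35 (SE 0.19) with 8 samples, at an unadjusted p of 5.83e-05 and an adjusted p of 0.794 in edgeR, and 1.21 with 9. Plekhf1, an endosomal lipid-binding protein, likewise stood at 26.5 to 37.9 CPM in 4 restricted samples, 13.0 in animal 67 and 15.7 to 20.8 in freely fed ones (0.81 with 8 samples, 0.66 with 9). Slc35g1, a solute carrier, was higher by 0.97 with 8 samples (5.59 ± 1.06 against 2.91 ± 0.092 CPM, SD, n = 4 each) and by 1.18 with 9. Adora2a, an adenosine receptor, was lower by 0.82 with 8 and 0.78 with 9.

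Immune genes lay slightly higher in restricted mice, with little support from single genes. Of 19 interferon response genes 14 were higher with 8 samples, 1 with an unadjusted p under 0.05 (Ifit3, higher by 0.53; background 1.53% in this direction), and the median was 0.18. When 1 mouse was left out that median lay between 0.084 (without animal 63) and 0.35 (without animal 68), with 0.089 without animal 65, 0.098 without animal 66 and 0.27 without animal 61. With 6 samples 17 of 19 were higher, 6 with such a p (background 2.83%). Of 14 complement and MHC class I genes 12 were higher with 8 samples (median 0.20), 1 of them, Tapbp, with such a p (background 1.53%). That median was 0.013 without animal 64, with 8 of 14 higher, and 0.15 to 0.30 without any 1 of the other 7 mice. All 14 were higher with 9 samples, at a median of 0.39, which includes animal 67 and its raised MHC genes. The summed level of this list was 1643 CPM in animal 67 and 846 to 1290 CPM in the others.

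Several groups showed opposite signs with and without animal 67. The heat shock and unfolded protein list had a median of 0.20 with 9 samples (13 of 21 higher), -0.027 with 8 (6 of 21 higher) and -0.11 with 6 (4 of 21 higher, 5 lower with an unadjusted p under 0.05, background 2.58%). Myelin genes had a median of -0.15 with 9 samples (2 of 14 higher) and 0.048 with 8 (9 of 14 higher), and astrocyte genes -0.12 and 0.068. Mbp was higher by 0.32 with 8 samples and by 0.074 with 9. No gene of these 3 lists was called by edgeR in the 9, the 8 or the 6 samples. Of the fasting and ketone (16 tested), insulin and IGF (20) and cholesterol synthesis (18) lists, 0 had an unadjusted p under 0.05 with 9 or with 8 samples.

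Transcripts of tissues that touch the pons were compared in the same way. The 11 tested genes of meninges and fibroblasts were all higher in restricted mice with 8 samples (median 0.59), though 0 had an unadjusted p under 0.05 in edgeR. Their summed levels were 3791, 2158, 4290, 825 and 1599 CPM in restricted animals 61, 62, 64, 65 and 67 and 1288, 898, 2461 and 1744 CPM in freely fed ones, which overlapped widely. Of the pituitary list 8 genes were tested, and 6 were higher with 8 samples at a median of 1.31 and 0 with such a p. With 9 samples the median was 2.92 and 5 had such a p (background 1.09% in this direction). Animal 67 was singled out for the share of counts its most abundant genes take, with Prl the first of them. The 9-sample values of this list thus describe that sample and are not a diet result. The blood list summed to 88.0, 39.1, 228, 10.2 and 125 CPM in restricted and 15.4, 10.5, 66.9 and 28.9 CPM in freely fed animals. What part these have in the differences above was not tested.

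Leaving out animal 67 moved the differences of some genes by several log2 units. Of 13549 genes tested in both sets, 630 shifted by more than 0.5 and 216 by more than 1. The sign differed for 3794, but only 54 of these exceeded 0.3 in both sets. Among the genes that shifted most were Prl (8.72 with 9 samples, 2.40 with 8), Cga (8.60 and 2.21), Platr9 (8.76 and 2.35) and Gh (8.69 and 3.22). Gal shifted from 5.58 to 6.7e-05, and Esr1, the estrogen receptor alpha, from 3.13 to -0.47. Tmem45a stood at 58.8 CPM in animal 67 and at 1.20 to 2.56 in the other restricted samples, and its difference was 3.02 with 9 samples and 0.015 with 8. Among the 15 genes with the smallest p of each set, 9 were shared, and all 9 had the same sign.

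**Figure D5:**
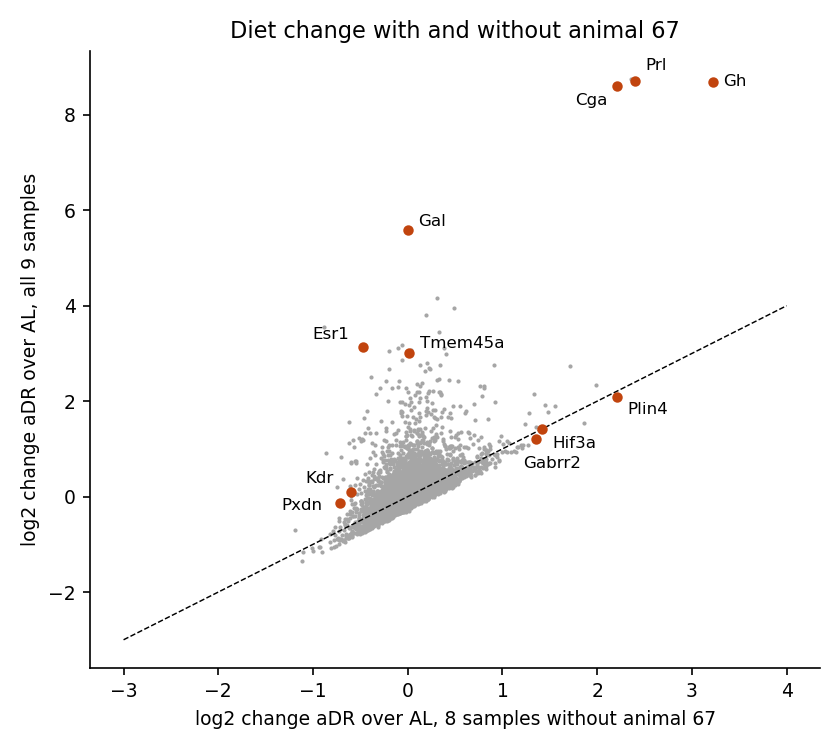
Log2 difference between restricted and freely fed mice for each of 13549 genes, with 8 samples (without animal 67) against all 9. Points far from the diagonal are genes whose value rests on animal 67, among them Prl (8.72 with 9 samples, 2.40 with 8); Plin4 (2.08 and 2.21) lies close to it.

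Whether the diet difference in the pons departs from that of other regions of the same mice was tested next. Against the medulla, 0 of 14071 genes (0%) passed an adjusted p of 0.05 in edgeR without animal 67, with 348 (2.47%) at an unadjusted p under 0.05, and 0 of 14143 passed with it, with 231 (1.63%). Against each mouse's level over the 14 other brain regions, 0 of 13626 genes (0%) passed in limma without animal 67 and 231 (1.7%) had an unadjusted p under 0.05. With animal 67 these were 0 of 13578 and 126 (0.928%). DESeq2 called 0 genes in the test against the medulla, with or without animal 67. The medulla samples have limits of their own: Hoxb5 stood at 0.904 CPM in animal 64 and 2.89 in animal 61 there, against 10.3 to 100 CPM in the other 7. Alone, the medulla gave 3 called genes without animal 67, which shows no difference by itself.

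Slc35g1 was near the top of both tests. Its diet difference was 0.97 in the pons, 0.0029 in the medulla and 0.10 in the other regions, a departure of 0.81 (SE 0.15) at an unadjusted p of 0.000458 and an adjusted p that rounds to 1.0 in limma. C5ar1, the receptor for complement C5a on myeloid cells, differed by 0.59 in the pons and -0.31 elsewhere (unadjusted p 0.000321). Ciart was higher by 0.52 in the pons, 0.30 in the medulla and 0.77 in the other regions. Its departure from the other regions was -0.26, at an unadjusted p of 0.0321 and an adjusted p that rounds to 1.0 in limma, and from the medulla 0.21, at an unadjusted p of 0.156 in edgeR. Plin4 was higher by 2.58 in the medulla and 1.86 in the other regions, and Cirbp by 0.58 and 0.67. For Cirbp the departure from the other regions was 0.10 (SE 0.20), an amount within its error.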

How the data were processed

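The deposited table holds whole-number read counts per gene for 238 samples. Per the labels' protocols, RNA was isolated with RNeasy and libraries were made by Smart-Seq2 and Nextera XT, as unstranded mRNA-seq, so genes and antisense partners cannot be told apart. The submitters' processing notes name Trim Galore 0.3.7, STAR 2.5.3a, DESeq2 (role not given) and the build GRCm38. The counting program and annotation are not given in the sources used here. The table has 21076 gene rows and 0 value columns without a sample. Of the symbols, 20267 matched RefSeq and 15922 had a promoter sequence there.

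CPM values were computed from the deposited counts with plain totals. Genes were filtered with filterByExpr (minimum count 10, minimum total 15), scaled by TMM and tested with edgeR 4.0.16 (quasi-likelihood, Benjamini-Hochberg, adjusted p under 0.05) in R 4.3.3, on the pons samples alone. The difference from the medulla was an interaction in edgeR. The difference from the other regions was tested per mouse with limma 3.58.1 on log2 CPM (prior count 2). It was the pons value minus that mouse's term in a linear fit on region and mouse over the other brain samples. Mouse numbers in the labels mark the same animal, which pairs pons with medulla. Deviations of the same mouse correlated at -0.179 to 0.382, and the blocked fit is in the closing section. Alternatives were DESeq2 1.42.0, other scalings, quality weights, no filter, a prior count of 0.5, each mouse left out, and sets or covariates chosen after seeing the data. The scripts were tested on simulated data.

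Members and lists were chosen with earlier results of these data known. The list of midbrain dopamine genes was added after its values were seen. Genes named were those called or among the 15 smallest p in either pons fit, all listed genes, the most abundant, most raised and most lowered genes of animal 67, the 10 smallest p of each test between regions, and the 10 genes that shifted most without animal 67. Depth was 4081568 to 14269037 counts a sample, and 4 or 5 mice a diet limit the precision more than depth does for abundant genes.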

Additional observations from a re-analysis of the deposited data

Results flagged for a closer look

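Of 156 groups of values tested for a sample far from the rest of its diet group, 31 were picked out, 18 of them in the sample of animal 67. Many of the genes were chosen for a small p in these same samples, and some lists share genes. The number picked out is therefore not to be read against chance. Animal 67 was also singled out beforehand for the share of counts its most abundant genes take. Its values for that share, the hormone genes and the pituitary list are therefore a description only. In it the hormone genes lay far above the other restricted mice, with Prl at 140935 CPM (others up to 1349), Gh at 30256 (up to 386), Cga at 15275 (up to 126), Tshb at 263, Lhb at 35.8 and Fshb at 24.7. The summed pituitary list stood at 206624 CPM and the 10 most abundant genes took 23.4% of its counts. Kdr at 45.8 CPM, Tmem45a at 58.8, Uba6 (an activating enzyme of ubiquitin) at 26.2, Nrros at 21.8 and Pxdn at 16.7 were also above the others, and Gabrr2 at 1.72 CPM below them. The summed choroid plexus list (222 CPM) and the fasting list (1504 CPM) were high, and the cartilage list (1358 CPM) and the cholesterol synthesis list (1073 CPM) low. Of the 14 choroid plexus genes only 6 lay above all other pons samples of the diet experiment, and Ttr stood at 0.735 CPM.

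The sample of animal 68 accounts for 9, all high among the 4 freely fed mice. They are Prl at 276 CPM, Gh at 63.4, Cga at 35.0, Pomc at 14.2, Plin4 at 8.0, Fkbp5 at 31.7 and Dbp (an output gene of the clock) at 97.5. The other 2 are the summed choroid plexus list at 40.2 CPM and the endothelium list at 710 CPM. The freely fed values of Plin4 and Fkbp5 nearest to the restricted ones are therefore those of a sample low in hindbrain genes.

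The remaining 4 were Cirbp at 259 CPM in animal 64, the midbrain dopamine list at 3960 CPM and the noradrenergic list (which shares Th with it) at 2271 CPM in the same sample, and Itgad, an integrin subunit, at 0 in animal 69.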

How the results depend on the processing

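With all 9 samples edgeR called 0 genes, DESeq2 called 1 (Plin4), voom with sample quality weights 2 (Gabrr2 and Cirbp) and the set without animals 64, 67 and 68, chosen after the data were seen, 1 (Cirbp). With 8 samples edgeR called 0, DESeq2 4, and the set without animals 64 and 68 1. Other scalings, robust dispersion, no filter and the added covariates left 0 calls in both. Leaving out 1 mouse gave 0 calls each time, with 89 to 460 genes at an unadjusted p under 0.05 of the 9 samples and 292 to 752 of the 8. In the paired analysis with a replicate block for the animal, the test of pons against medulla called 0 genes with 18 or 16 samples, as did every other setting run for the tests between regions. Over the named genes of the 9-sample fit, 523 of 538 values under another setting kept their direction and side of the threshold, 4 passed it and 11 reversed. Of the 8-sample fit 498 of 508 kept both, 5 passed and 5 reversed. With 9 samples Kdr reversed to -0.012 with plain totals, -0.62 with quality weights, -0.58 without animals 64, 67 and 68, -0.67 with the pituitary list as a covariate, and ran from -0.60 (without animal 67) to 0.28 when 1 mouse was left out. Tmem45a reversed to -0.21 with that covariate. Nr1d1 ran from -0.15 to 0.062 when 1 mouse was left out, above 0 without animal 61, 62, 65, 68 or 69. With 8 samples Tmem45a reversed to -0.030 with plain totals and ran from -0.26 to 0.29 when 1 mouse was left out, below 0 without animal 61, 63, 64 or 66. All of these lay near 0 or rest on animal 67, and the cause was not tested. Leaving out each of the 8 mice moved the glucocorticoid median from 0.31 to 0.47, the interferon median from 0.084 to 0.35 and the complement and MHC median from 0.013 to 0.30. The clock median ran from -0.0082 to 0.12 and the myelin median from -0.029 to 0.12. Genes near the floor of 3 counts cannot be read at these depths.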

Other observations

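The pons of the male mice in the plasma experiment, also 19 months old, gives the same markers outside the diet comparison. Prl was at 0 counts in 4 of 6 samples, and stood at 180 CPM in a PBS-injected mouse (animal 80) and 7.63 CPM in a mouse given young plasma (animal 81). One plasma-injected sample (animal 77) had Slc6a3 at 1885 CPM with Hoxb5 at 0.970 CPM, a combination also seen in animals 64 and 68.

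Spp1, the matrix protein osteopontin, which large brainstem neurons express, stood at 163 CPM in animal 64 and 60.4 in animal 68, against 670 to 1108 CPM in the other 7 pons samples of the diet experiment. Cartpt, a neuropeptide precursor, stood at 93.2 and 27.3 CPM in the same pair against at most 6.02 CPM. All 13 genes encoded by mitochondrial DNA were lower in restricted mice in the 6 samples without animals 64, 67 and 68 (median -0.12, 1 with an unadjusted p under 0.05 in edgeR, background 2.58% in this direction), against 8 of 13 with 8 samples.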
